A study of Mus musculus with 6 samples.

Results

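Aminoacyl-tRNA synthetases join each amino acid to its tRNA, and the genes that encode them were examined here in macrophages carrying a microRNA mimic. The family was taken as every gene of the array whose symbol has the form of a synthetase name (a 1-letter amino acid code followed by ars), together with Eprs, Farsa and Farsb, and it comprised 34 of the 19938 genes tested. Of these, 18 encode cytosolic enzymes and 16, whose symbols end in 2, encode mitochondrial enzymes. Aars shares its probe set with Exosc6 in the annotation and was therefore not used.

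The cells were RAW264.7, an established mouse macrophage line derived from a virus-induced tumour, so that all results stem from 1 transformed line. They received either a mimic of miR-342-3p, which is a synthetic duplex that loads the cell with the mature strand, or a negative control mimic of scrambled sequence, and the labels name no other treatment in either group. Total RNA was isolated 18 h later, 150 ng of it was amplified and labelled, and 3 miR-342-3p and 3 control arrays were hybridized. The comparison asked which transcripts differ when miR-342-3p is in excess, and values are log2 expression after RMA (robust multi-array average).

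In the cytosol and in the mitochondrion separate sets of synthetases serve separate ribosomes, and most amino acids have a gene for each compartment. Synthetases fall into classes I and II by the fold of their catalytic domain. Several cytosolic enzymes sit together in the multisynthetase complex on non-enzymatic scaffold proteins. When a synthetase runs short of its amino acid, uncharged tRNA activates the kinase GCN2, phosphorylated eIF2 slows general translation, and the transcription factor ATF4 induces amino acid transporters, biosynthetic enzymes and, in mammalian cells, many cytosolic synthetase genes.

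The mature miR-342-3p is shown first because it is what distinguishes the groups. Its sequence is that of RefSeq (GRCm38.p6, chr12:108658680-108658702, plus strand), with the seed (bases 2 to 8, which pair with target transcripts) in capitals. Below it stand stretches of 30 bases from the promoters of Gars, Iars, Tars and Yars, which carry the letters TGATGNAA on one strand or the other (in capitals). This is the type of composite element that ATF4 binds together with a C/EBP partner. The coordinates, in the order of the lines, are chr6:55037960-55037989 (plus strand), chr13:49682126-49682155 (plus), chr15:11399655-11399684 (minus) and chr4:129189895-129189924 (plus), all in GRCm38.p6. The match begins 30 bases upstream of the annotated start of Gars, at base 8 downstream in Iars, 15 bases upstream in Tars and at base 4 downstream in Yars.
mmu-miR-342-3p: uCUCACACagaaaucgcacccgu
Gars: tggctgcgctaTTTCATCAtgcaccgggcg
Iars: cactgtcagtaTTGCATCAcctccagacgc
Tars: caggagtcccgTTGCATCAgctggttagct
Yars: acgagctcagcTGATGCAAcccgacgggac

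RefSeq promoter windows, which run from 250 bases before the start to 50 after it, were matched for 25 of the 34 genes (26 windows). These 4 windows were the ones with a match, 15.4% of the family's windows, against 3.97% of all 32851 windows searched in the same way. All belonged to cytosolic genes (4 of 11 windows, 36.4%), and 0 of 15 windows of mitochondrial genes had the letters. Among other ATF4 target genes 8 of 30 windows (26.7%) did. The windows of Farsa and Iars2 held no match. These matches are letters in a window and say nothing of binding, and the windows were chosen after the values of the genes had been seen.

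The 6 arrays were not equally alike. The first principal component held 61.1% of the variance, and on it miR-342-3p replicate 3 (0.85) lay nearer to the control arrays (-18.71 to -15.79) than miR-342-3p replicates 1 (28.67) and 2 (20.85) did. Weights estimated for the arrays were 0.235 to 0.925 for miR-342-3p and 1.69 to 3.36 for control. The macrophage markers measured (8 of the 10 listed) had group means of 7.32 to 12.58 in miR-342-3p and 7.49 to 12.68 in control cells, with Spi1 called higher and Itgam and Fcgr1 called lower. The 12 T cell, B cell, fibroblast and epithelial markers averaged 4.70 to 8.12 in miR-342-3p and 4.41 to 7.93 in control cells, beside array medians of 7.09 to 7.24. Of these Pdgfra was called, 0.49 higher on the log2 scale in miR-342-3p cells, and the part of marker shifts in the synthetase values was not tested.

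Across the synthetase family few genes differed between the groups. With limma over all 19938 genes and a call at a Benjamini-Hochberg FDR under 0.1, Iars was called higher in miR-342-3p cells and Farsa, Lars and Iars2 were called lower, whereas 30 genes were not called. With each array centred on its median 0 synthetase genes were called higher and 4 lower (376 and 2009 over all genes). With quantile normalization repeated over the genes 4 were called higher and 3 lower (1414 and 1453 over all genes). The 4 called genes made up 11.8% of the family, close to the 11.6% called among all genes (4.14% higher and 7.42% lower). The median log2 fold change, miR-342-3p minus control, was -0.01 in the family and 0.07 over all genes. In bulk RNA, fewer cells expressing a transcript and less of it per cell cannot be told apart.

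**Figure D1:**
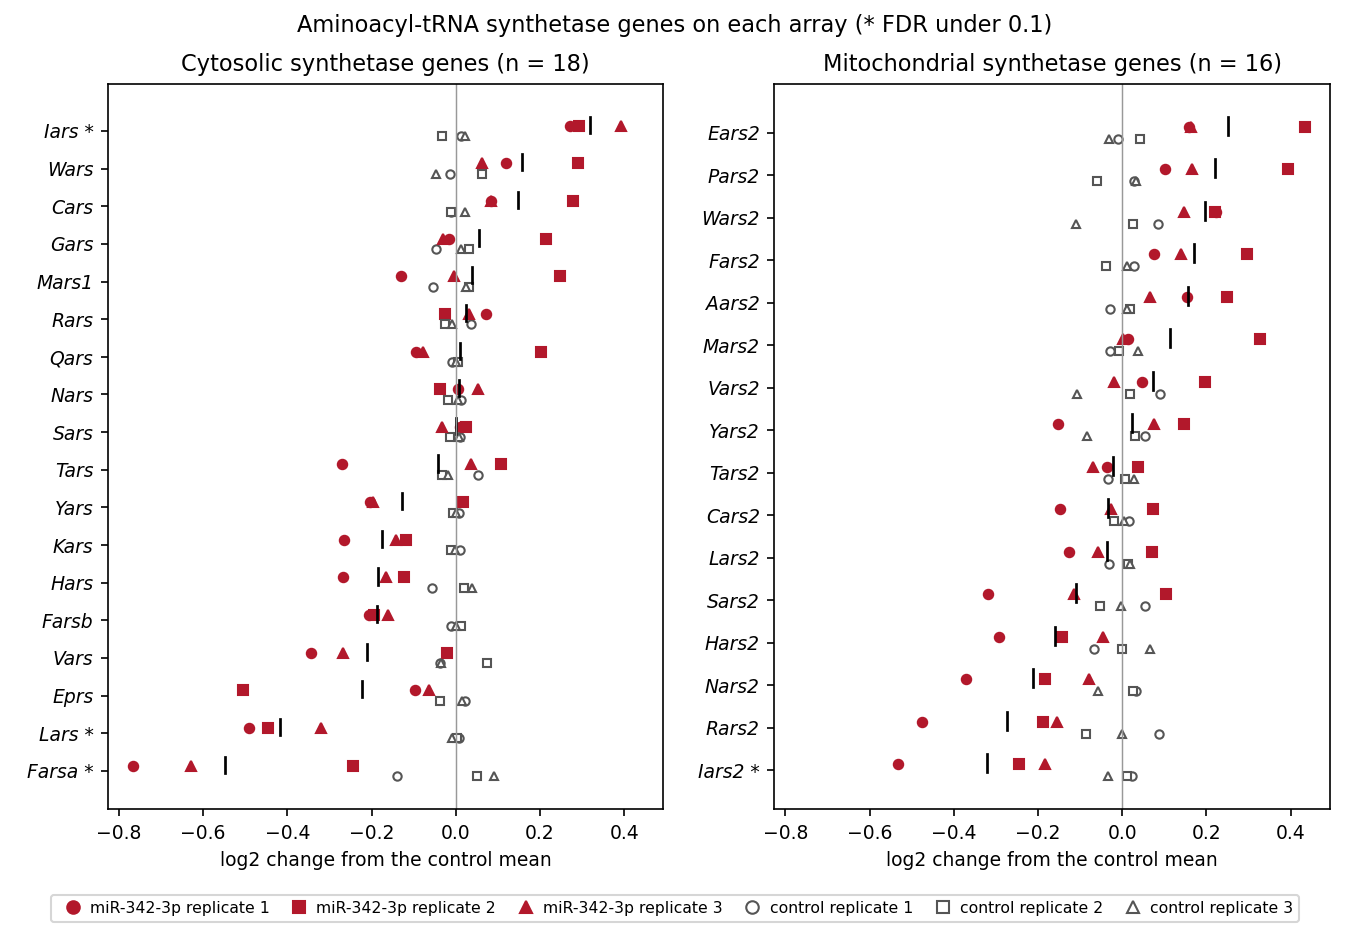
Change of each synthetase gene on each array from the control mean (horizontal axis, log2), cytosolic genes on the left and mitochondrial genes on the right, sorted by the mean change; filled symbols are miR-342-3p arrays, drawn above the open control symbols, the short line is the miR-342-3p mean, and a star marks an FDR under 0.1. Farsa and Lars lie farthest to the left and Iars farthest to the right, with the miR-342-3p symbols of most genes wider apart than the control symbols.

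The largest change of the family was that of Farsa, which encodes the catalytic subunit of the cytosolic phenylalanyl-tRNA synthetase. It measured 9.51, 10.03 and 9.65 on the miR-342-3p arrays, against 10.14, 10.33 and 10.37 on the control arrays. All miR-342-3p arrays were below all control arrays, with replicate 2 the nearest to them. The means were 9.73 ± 0.27 in miR-342-3p and 10.28 ± 0.12 in control cells (SD, n = 3 each), a log2 fold change of -0.55 (SE 0.13, limma FDR 0.0542). Its call was lost without miR-342-3p replicate 1, where the change was -0.44 (FDR 0.118). Without any one of the control arrays the change was -0.62 to -0.50 and the FDR 0.142 to 0.196. Those fits without a control array called 88 to 100 genes higher and 102 to 140 lower over all genes, against 825 and 1479 with all arrays. Calls lost in them, here and for the genes below, are thus not particular to the gene.

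The enzyme is a tetramer of equal numbers of Farsa and Farsb chains, and Farsb was the gene with the smallest FDR among those not called. Farsb, the subunit that clears mischarged tRNA, measured 10.71, 10.72 and 10.76 in miR-342-3p and 10.91, 10.93 and 10.92 in control cells. Its groups did not overlap either, and its log2 fold change was -0.19 (FDR 0.141). The mitochondrial counterpart Fars2, a single-chain enzyme, stood on the other side of 0 with 8.21, 8.42 and 8.27 in miR-342-3p and 8.16, 8.09 and 8.14 in control cells, a log2 fold change of 0.17 (FDR 0.226) that was not called.

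Lars encodes the cytosolic leucyl-tRNA synthetase, which also reports leucine to the growth regulator mTORC1. It had the smallest FDR of the family. Values were 9.25, 9.30 and 9.43 on the miR-342-3p arrays, against 9.75, 9.75 and 9.74 on the control arrays. Each miR-342-3p array was below the control mean by more than the whole range of the control arrays, with changes of -0.49, -0.45 and -0.32. The means were 9.33 ± 0.09 in miR-342-3p and 9.75 ± 0.0078 in control cells (SD, n = 3 each), and the log2 fold change was -0.42 (SE 0.08, limma FDR 0.0254). The call held without each miR-342-3p array (FDR 0.0101 to 0.0460). It was lost without each control array (FDR 0.126 to 0.135), where the change stayed at -0.423 to -0.415. Lars2, the mitochondrial leucyl enzyme, had 7.89, 8.09 and 7.96 in miR-342-3p and 7.99, 8.03 and 8.03 in control cells, which overlapped.

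Iars and Iars2, which charge isoleucine in the cytosol and in mitochondria, were called in opposite directions. Iars2 measured 9.37, 9.66 and 9.72 on the miR-342-3p arrays, against 9.93, 9.92 and 9.87 on the control arrays. The groups were apart, with miR-342-3p replicate 1 the lowest. Its log2 fold change was -0.32 (SE 0.10) at an FDR of 0.0993, just inside the threshold. Iars2 was not called without miR-342-3p replicate 1 (-0.21, FDR 0.111) or without any one control array (-0.34 to -0.31, FDR 0.254 to 0.299). Iars measured 11.17, 11.19 and 11.29 on the miR-342-3p arrays, against 10.91, 10.87 and 10.92 on the control arrays. All miR-342-3p arrays were higher, and the log2 fold change was 0.32 (SE 0.07, limma FDR 0.0460). Without any one control array its change was 0.30 to 0.33 and its FDR 0.188 to 0.208.

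The value for Iars rests on which of its probe sets is read. Iars was the member with more than 1 probe set, and the one with the larger interquartile range represented it. Probe sets of this array are numbered largely along the genome. For each of the family's 35 probe sets, the 8 numbered nearest (4 on each side) were taken among probe sets with 1 annotated gene. For 34 of the 35 the chromosome most frequent among these 8 is the gene's own. The exception is the one that gave the call, which lies between probe sets of Tfap2b and Mir206, with 0 of its 8 neighbours on chromosome 13, where Iars lies, and all 8 on chromosome 1. The other Iars probe set, with 8 of 8 neighbours on chromosome 13, measured 10.68, 10.80 and 10.68 in miR-342-3p and 10.62, 10.60 and 10.60 in control cells. Its groups were also apart in the same direction, but the log2 fold change was 0.12 (SE 0.07, limma FDR 0.328), and the mean of both probe sets gave 0.22 (FDR 0.106), neither of them called. What the first probe set hybridizes to was not tested. The use of the other probe set was added after the data had been seen.

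**Figure D2:**
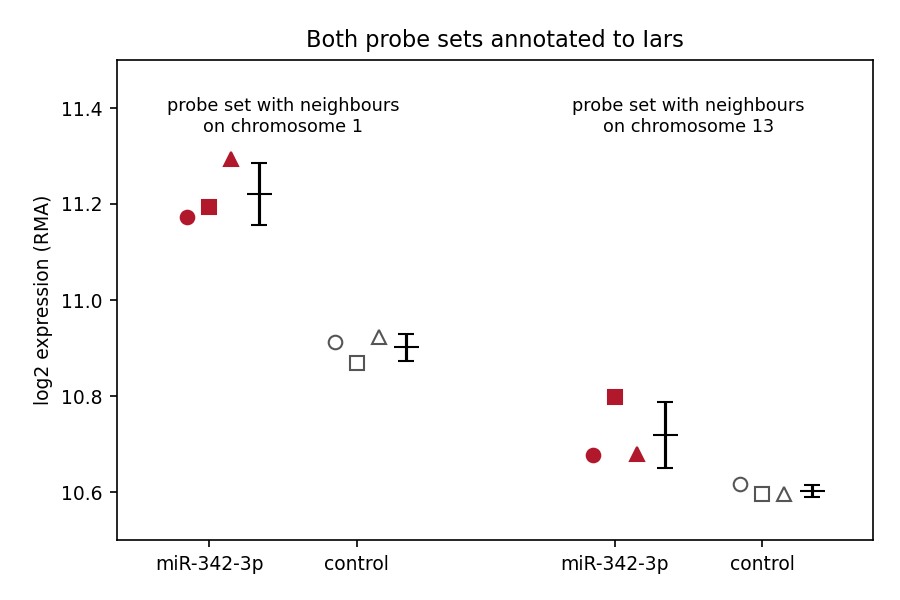
Log2 expression on each array for both probe sets annotated to Iars, with miR-342-3p arrays as filled and control arrays as open symbols and the mean ± SD (n = 3) beside them. The probe set on the left, which represented the gene, shows a gap of 0.32 between the group means, and the one on the right a gap of 0.12.

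Among the 18 cytosolic genes, 1 was called higher, 2 were called lower and 15 were not called, with 8 positive and 10 negative fold changes and a median of -0.02, which was 0.04 with quantile normalization repeated over the genes and -0.09 with each array centred on its median. Among the 16 mitochondrial genes, limma called 0 higher (3 were at an unadjusted p under 0.05), 1 lower and 15 not at all, with 8 positive and 8 negative fold changes and a median of 0.00045, which was 0.07 and -0.07 with the same scalings. Regardless of calls, the groups did not overlap for 17 of the 34 genes (50%), 8 of them higher and 9 lower in miR-342-3p cells, against 36.9% of all genes (21.4% higher and 15.5% lower).

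The cytosolic genes below zero that were not called were Eprs at -0.22, Vars at -0.21, Farsb, Hars at -0.19, Kars at -0.18, Yars at -0.13 and Tars at -0.04. Of these Eprs, the bifunctional glutamyl-prolyl enzyme, had changes of -0.10, -0.51 and -0.06 on the 3 miR-342-3p arrays, so that replicate 2 made up most of its mean. Sars, the seryl enzyme, had a mean of 11.37 in both groups and a log2 fold change of -1e-04. Above zero stood Nars at 0.0067, Qars at 0.01, Rars at 0.03, Mars1 at 0.04, Gars at 0.06, Cars at 0.15 and Wars at 0.16, the last a tryptophanyl enzyme known to be induced by interferon. The arrays of Cars and Wars did not overlap between the groups (for Wars, the nearest arrays were equal to 2 decimals), and neither gene was called (FDR 0.273 and 0.268).

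Of the mitochondrial genes, Rars2 at -0.27 (FDR 0.145), Nars2 at -0.21, Hars2 at -0.16 and Sars2 at -0.11 had the lowest fold changes after Iars2. Near zero lay Lars2 at -0.04, Cars2 at -0.03, Tars2 at -0.02, Yars2 at 0.02 and Vars2 at 0.07. Higher values belonged to Mars2 at 0.11, Aars2 at 0.16, Fars2 at 0.17, Wars2 at 0.20, Pars2 at 0.22 and Ears2 at 0.25, and Ears2, the glutamyl enzyme, came closest to a call among mitochondrial genes (FDR 0.142). It measured 7.89, 8.17 and 7.90 in miR-342-3p and 7.73, 7.78 and 7.70 in control cells, with all miR-342-3p arrays higher. For the 30 genes not called, the 95% confidence intervals of the fold change reached 0.157 to 0.269 to either side. Smaller differences than these could not be resolved with 3 arrays per group. Larger ones could also go uncalled, since the intervals are not adjusted for the number of genes tested. That of Ears2, for example, ran from 0.04 to 0.46.

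Set side by side per array, the medians of both classes stayed near 0. The cytosolic median, relative to the control mean, was -0.11, -0.0031 and -0.05 on miR-342-3p replicates 1, 2 and 3, and the mitochondrial median was -0.08, 0.12 and -0.02. The cytosolic minus mitochondrial difference was thus -0.03, -0.13 and -0.02 on the miR-342-3p arrays, against -0.03, -0.01 and 0.0011 on the control arrays, and these ranges overlapped. No test was made of a score over the members. The classes also differed in level, with a median log2 expression of 10.3 for cytosolic and 8.21 for mitochondrial genes, beside 7.15 over all genes. The part of level in the differences between the classes and within pairs was not tested. By catalytic fold, the 8 cytosolic class II genes had 0 genes with all miR-342-3p arrays higher and 4 with all lower (Farsa, Farsb, Hars and Kars), and the 10 cytosolic class I genes, with Eprs counted among them, had 3 and 2. Over all genes these shares were 21.4% higher and 15.5% lower, and the difference between the catalytic classes was not tested.

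The cytosolic and the mitochondrial gene were also compared for each amino acid. Of 16 pairs of a cytosolic and a mitochondrial chain for the same amino acid, the cytosolic minus mitochondrial difference in change was above all control arrays on all miR-342-3p arrays in 4 (Iars, Rars, Nars and Cars), below them in 7 (Yars, Vars, Farsb, Lars, Farsa and Eprs against both Pars2 and Ears2) and overlapped in 5 (Sars, Tars, Hars, Wars and Mars1). The widest were phenylalanine, with Farsa minus Fars2 at -0.84, -0.54 and -0.77 on the miR-342-3p arrays and -0.17, 0.09 and 0.08 on the control arrays, and isoleucine. For isoleucine, Iars minus Iars2 was 0.81, 0.54 and 0.58 on the miR-342-3p arrays and -0.01, -0.04 and 0.05 on the control arrays. These have the limits given above for the probe sets of Iars. Pairs that share Eprs or Fars2 are not separate measurements, and differences within pairs were not tested. How often other pairs of genes are apart in this way was not computed, and of single genes 36.9% were.

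**Figure D3:**
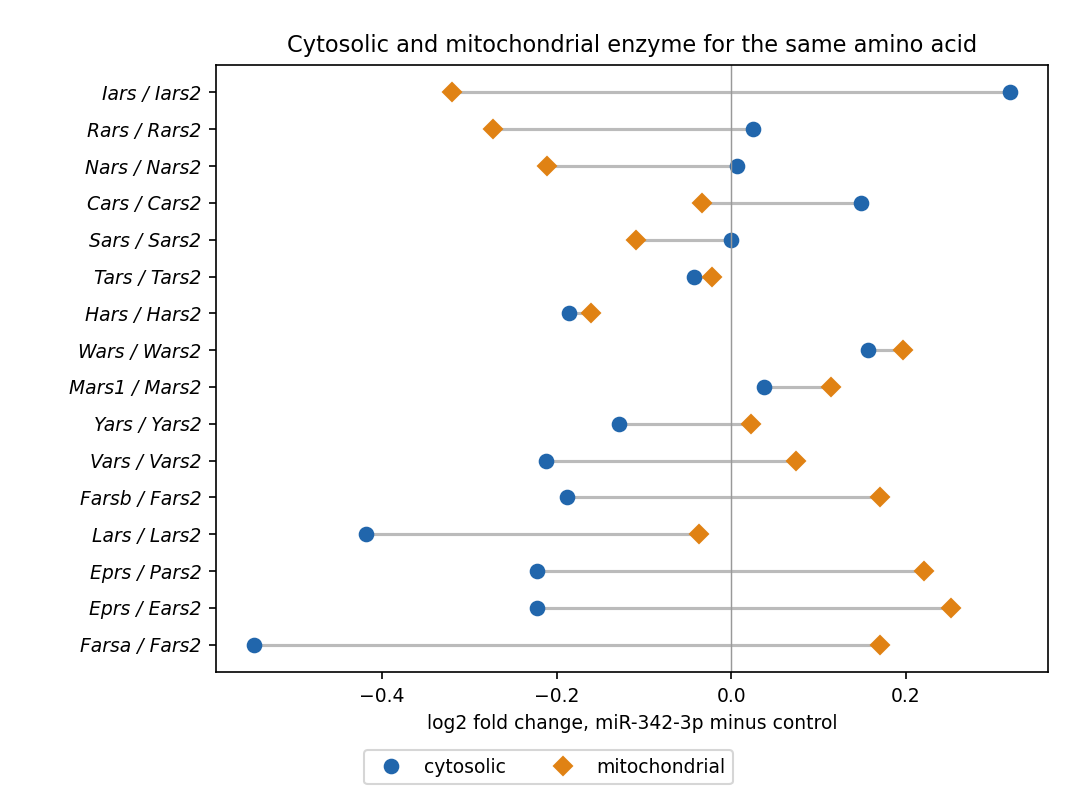
Log2 fold change, miR-342-3p minus control, of the cytosolic (circles) and the mitochondrial (diamonds) gene for each amino acid, sorted by their difference. Iars stands 0.64 above Iars2 at the top and Farsa stands 0.72 below Fars2 at the bottom, while the pairs of Tars, Hars and Wars lie close together.

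The multisynthetase complex, whose enzymes were grouped after the values had been seen, was examined next. Of its 7 enzymes here (Eprs, Iars, Kars, Lars, Mars1, Qars and Rars), Lars was called lower and Iars higher, Iars by 1 of its 2 probe sets and not by their mean, and the median was 0.01, whereas of the 11 other cytosolic genes Farsa was called lower and the median was -0.04. The genes of the complex's scaffold proteins, Aimp1 at -0.25 (FDR 0.193), Aimp2 at 0.03 and Eef1e1 at -0.04, were not called. Gars and Kars, each of which supplies both the cytosol and mitochondria, measured 0.06 and -0.18 and were not called.

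Genes that act beside the synthetases held further calls. Of the 8 measured genes for synthetase-like, editing and selenocysteine proteins, limma called 4 lower and 0 higher (0 at an unadjusted p under 0.05), with a median of -0.30, where 7.42% of all genes were called lower. Pstk, the kinase that acts on seryl-tRNA on the way to selenocysteine, measured 7.00, 7.17 and 7.37 in miR-342-3p and 7.65, 7.76 and 7.64 in control cells, a log2 fold change of -0.50 (limma FDR 0.0329). Aarsd1, which hydrolyses mischarged alanyl-tRNA, measured 8.63, 8.70 and 8.70 in miR-342-3p and 9.17, 9.09 and 9.14 in control cells (-0.46, FDR 0.0168). In both genes all miR-342-3p arrays were below all control arrays. Tarsl2, a threonyl-tRNA synthetase-like enzyme outside the family's naming rule, and Dtd2, which removes misattached amino acids from tRNA, fell by 0.43 (FDR 0.0423) and 0.32 (FDR 0.0628). Without any one control array the list had 0 to 1 genes called lower, in a fit in which 88 to 100 genes were called higher and 102 to 140 lower among all genes.

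In mitochondria, glutaminyl-tRNA is made by amidation of glutamyl-tRNA, and the initiator methionyl-tRNA is formylated. Of the 4 measured genes for these steps Qrsl1, a subunit of the amidotransferase, and Mtfmt, the formyltransferase, were called lower at -0.34 (FDR 0.0906) and -0.32 (FDR 0.0481). Limma called 0 of the 4 higher (0 at an unadjusted p under 0.05). Without miR-342-3p replicates 1 or 3 it called 1 lower, beside 986 and 2422 over all genes. With all arrays 7.42% of all genes were called lower and 4.14% higher. Of the 9 mitochondrial translation factors limma called 3 lower and 0 higher (1 was higher at an unadjusted p under 0.05), with a median of -0.33. Those called were the initiation factor Mtif2 at -0.51 (FDR 0.0829) and the elongation factors Gfm1 at -0.44 (FDR 0.0263) and Tsfm at -0.38 (FDR 0.0488). Per miR-342-3p array the median of these factors was -0.57, -0.16 and -0.22, below every control array (-0.04 to 0.05). The 4 cytosolic elongation factors had 0 calls by limma (0 at an unadjusted p under 0.05) and a median of -0.06. Without any one control array 0 of the mitochondrial partners and factors were called. Without miR-342-3p replicate 2 the factors had 5 genes called lower, beside 1830 over all genes, against 1479 with all arrays. The initiation factor Mtif3, singled out after its values had been seen, was at 0.28 and not called (limma FDR 0.176), whereas without miR-342-3p replicate 3 and by the methods' t-test at an unadjusted p under 0.05 1 factor was called higher. Over all genes these settings called 2104 and 2080 higher, against 825 in the main fit.

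The genes that sense uncharged tRNA and control eIF2 had 2 of 13 called lower, Eif2b1 at -0.37 (FDR 0.0732) and Eif2b3 at -0.26 (FDR 0.0704), both subunits of the eIF2 exchange factor, where 7.42% of all genes were called lower. Limma called 0 of them higher (0 at an unadjusted p under 0.05). Without miR-342-3p replicate 2 it called 1 higher, beside 1171 over all genes, against 825 with all arrays. Eif2ak4, which encodes GCN2, measured 7.33, 7.51 and 7.53 in miR-342-3p and 7.62, 7.52 and 7.59 in control cells, which overlapped (-0.12, FDR 0.366). Without any one control array, 0 of these genes were called lower, beside 102 to 140 over all genes. Without miR-342-3p replicates 2 or 3, 3 or 4 were, beside 1830 and 2422 over all genes. With all arrays 1479 of all genes were called lower.

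ATF4 target genes other than the synthetases were the list with the most calls. Of 29 measured, with Atf4 itself counted among them, limma called 15 higher and 0 lower (0 at an unadjusted p under 0.05), with a median log2 fold change of 0.35. Of all genes 4.14% were called higher. Of the 34 synthetases 1 was called higher and 3 lower, and of the 18 cytosolic ones 1 higher and 2 lower. The highest of the ATF4 list were Ppp1r15a at 1.36 (FDR 0.0121), which restores eIF2 activity, Chac1 at 1.34 (FDR 0.0034), a glutathione-degrading enzyme, Herpud1 at 1.26 (FDR 0.0085), a protein of endoplasmic reticulum-associated degradation, and Slc7a11 at 1.25 (FDR 0.0021), the cystine transporter. Atf4 itself measured 10.18, 10.44 and 10.08 in miR-342-3p and 9.89, 9.86 and 9.90 in control cells, with all miR-342-3p arrays higher (0.35, limma FDR 0.0791). Ddit3, the stress-induced factor CHOP, was higher by 1.07 (FDR 0.0112), whereas Asns, the asparagine synthetase induced by amino acid shortage, was at 0.22 and not called (FDR 0.127). Enzymes of amino acid and one-carbon metabolism were not called either: Psat1 at -0.02, Phgdh at 0.17, Psph at 0.02, Shmt2 at -0.22, Mthfd2 at 0.20, Aldh18a1 at 0.28 and Gpt2 at 0.46. Of the transporters Slc7a5 at 0.17, Slc7a1 at 0.20 and Slc7a3 at -0.06 were not called, whereas Slc3a2 at 0.37 and Slc7a11 were. The median of the list was 0.32, 0.51 and 0.17 on miR-342-3p replicates 1, 2 and 3, so it was highest on replicate 2. Without any one control array, 8 to 9 of the 29 were called higher, beside 88 to 100 over all genes. The synthetase genes that carry the promoter letters shown above had log2 fold changes of 0.06 (Gars), 0.32 (Iars), -0.04 (Tars) and -0.13 (Yars), and of these Iars was called, with the limits of its probe sets. The difference between the lists was not tested.

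**Figure D4:**
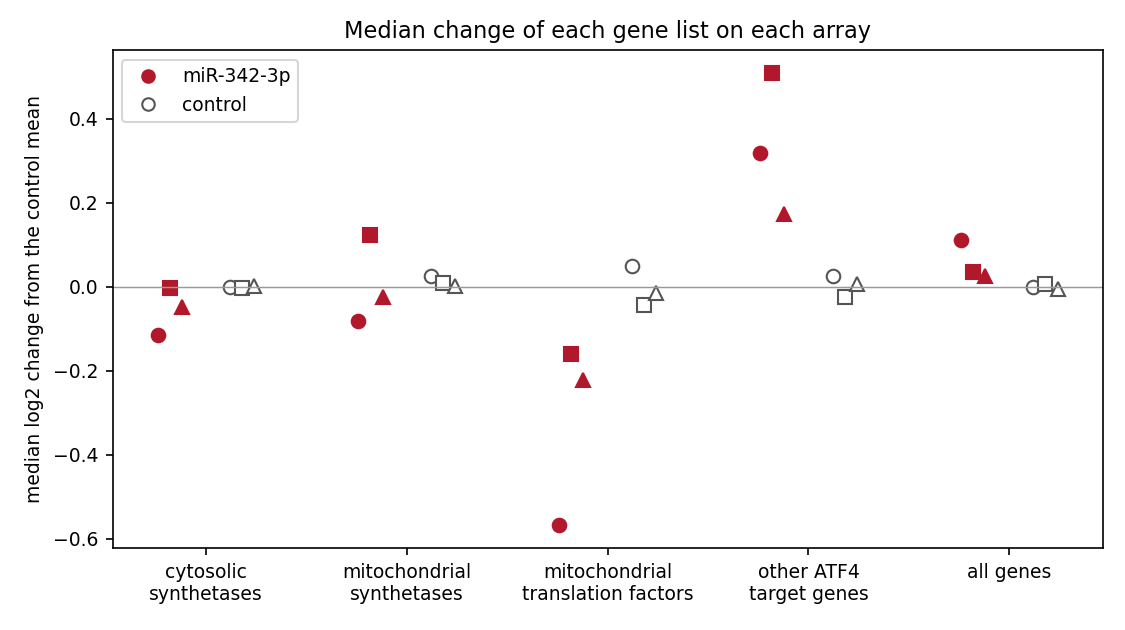
Median log2 change from the control mean on each array for 5 gene sets, with miR-342-3p arrays as filled symbols to the left of the open control symbols (circle, replicate 1; square, replicate 2; triangle, replicate 3). The other ATF4 target genes lie at 0.17 to 0.51 and the mitochondrial translation factors at -0.57 to -0.16 on the miR-342-3p arrays, while the synthetase classes lie between -0.11 and 0.12.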

How the data were processed

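RNA of 3 miR-342-3p and 3 control transfections of RAW264.7 cells was hybridized to Affymetrix arrays, and groups and replicate numbers came from the sample titles. The study describes the arrays as independent experiments. The authors corrected, quantile-normalized and summarized the scans by RMA, of which no source used here gives the version, and deposited log2 values of 35556 probe sets. Quantile normalization forces the arrays to like distributions, so a shift shared by all transcripts is not seen. The values of the tested genes were still not fully alike, with array medians of 7.24, 7.13 and 7.15 for miR-342-3p and 7.09 to 7.11 for control. With 3 arrays a group, their number limits the precision.

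Probe sets with 1 annotated gene (21789) were kept, and 999 genes with several were represented by the probe set of largest interquartile range over the arrays. A linear model with empirical Bayes moderation (limma 3.58.1, R 4.3.3) was fitted to the 19938 genes, with Benjamini-Hochberg adjustment over all genes and calls at an FDR under 0.1. The steps were tested on simulated data. Every called synthetase gene is given with its value on each array, every other one with its fold change. Of each list up to 4 called genes in the direction of most calls and up to 2 in the other are named by size of change, and Eif2ak4, Atf4, Ddit3, Asns, Aimp1, Aimp2 and Eef1e1 whatever their values. Mtif3 and further enzymes and transporters of the ATF4 list were added after the values had been seen. The members, lists and tests were chosen with earlier results of these data known. Promoters were searched in Python version 3.11.15 on both strands. Alternatives were the replicate block, each array left out, other probe sets, scalings, a filter on level, other priors and weights, another threshold, and the methods' t-test, which the study states for other comparisons.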

Additional observations from a re-analysis of the deposited data

How the results depend on the processing

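With 3 arrays per group, calls near the threshold depended on single arrays and on the scaling. Leaving out 1 array at a time gave 0 to 2 synthetase genes called higher and 0 to 5 called lower, beside 88 to 2104 higher and 102 to 2422 lower over all genes. Among cytosolic genes it gave 0 to 1 higher and 0 to 3 lower, and among mitochondrial genes 0 to 1 higher and 0 to 3 lower. Without any one control array the fit called 0 synthetase genes in either direction, and 88 to 100 genes higher and 102 to 140 lower over all genes. Mitochondrial genes had 0 called lower without miR-342-3p replicate 1 too, and 0 called higher without miR-342-3p replicates 1 or 2. The cytosolic median ranged from -0.083 (without miR-342-3p replicate 2) to -0.0015, and the cytosolic minus mitochondrial difference from -0.057 to -0.011.

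Deviations of same-numbered arrays correlated at -0.308, -0.163 and -0.106, against -0.0687 to 0.228 for differently numbered arrays. With so few arrays this cannot decide whether samples of the same number were paired. The fit with the replicate number as a block called 0 mitochondrial genes lower (Iars2, FDR 0.129) and changed no other synthetase call. Among the other lists it called 0 mitochondrial charging partners lower (2 without the block), 1 gene of tRNA sensing and eIF2 control lower (2 without it) and 0 genes of tRNA maturation and export higher (1 without it). Over all genes the fit with the block called 550 higher and 1445 lower, against 825 and 1479 without it. Array weights likewise called 0 mitochondrial genes lower, beside 1340 genes called lower over all genes. An FDR under 0.05 left 1 gene called lower, a cytosolic one (Lars), and 0 mitochondrial genes lower, beside 661 genes called lower over all genes. The mean of all probe sets, the other probe set of Iars and arrays centred on their median each called 0 synthetase genes higher, cytosolic ones included. Over all genes the mean of all probe sets called 810 higher, and the other probe set of Iars 824. The median-centred arrays gave a cytosolic median of -0.092, with 376 genes called higher and 2009 lower over all genes. Repeated quantile normalization called 4 genes higher, 3 of them mitochondrial (Ears2, Fars2 and Wars2), with a cytosolic median of 0.043. Over all genes this scaling called 1414 higher and 1453 lower. The filter on level called 3 higher and 6 lower, with 4 cytosolic genes lower and 2 mitochondrial genes in each direction. Among all genes kept by the filter 1086 were called higher and 1952 lower. The methods' t-test at an unadjusted p under 0.05 called 3 higher and 6 lower, with 5 cytosolic genes lower and 2 mitochondrial genes higher. Over all genes it called 2080 higher and 1955 lower. After Benjamini-Hochberg adjustment it called 0 synthetase genes in each direction and class, and 0 genes higher and 1 lower over all genes. Limma at an unadjusted p under 0.05 called 12 of the 34 synthetase genes, beside 5086 of all 19938 genes.

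Genes near 0, none of them called in any fit named here, changed sign. With arrays centred on their median the log2 fold change was -0.045 for Rars, -0.059 for Qars, -0.064 for Nars, -0.033 for Mars1, -0.047 for Yars2 and -0.015 for Gars. With repeated quantile normalization it was 0.0094 for Lars2, 0.046 for Tars2, 0.040 for Cars2, 0.021 for Tars and 0.065 for Sars, and with array weights -0.015 for Qars and 0.012 for Tars. Leaving out 1 array at a time, the log2 fold change ranged for Cars2 from -0.087 to 0.023, for Gars from -0.024 to 0.099, for Lars2 from -0.092 to 0.0073, for Mars1 from -0.068 to 0.12, for Nars from -0.016 to 0.029, for Qars from -0.085 to 0.063, for Sars from -0.011 to 0.016, for Tars from -0.12 to 0.071, for Tars2 from -0.052 to 0.0014 and for Yars2 from -0.038 to 0.11. The cause of these changes was not tested.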

Other observations

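Maturation and export of the tRNAs that synthetases charge had 4 genes called lower and 1 called higher among the 17 measured, where 7.42% of all genes were called lower and 4.14% higher. Of the proteins of ribonuclease P, which trims the 5′ end of precursor tRNA, Rpp40 and Rpp30 were lower in miR-342-3p cells and Rpp38 was higher. Rpp40 measured 7.29, 7.73 and 7.51 on the miR-342-3p arrays, against 8.14, 8.27 and 7.98 on the control arrays, a log2 fold change of -0.62 (limma FDR 0.0301). Rpp30 measured 9.26, 9.17 and 9.45 in miR-342-3p and 9.88, 9.81 and 9.84 in control cells (-0.55, FDR 0.0185). In both genes all miR-342-3p arrays were below all control arrays. Rpp38 was at 0.30 (FDR 0.0574). Trnt1, which adds the CCA end to which amino acids are attached, was at -0.43 (FDR 0.0638), and Trmu, which thiolates mitochondrial tRNAs, at -0.27 (FDR 0.0901). The median of the list was -0.13, and without any one control array 0 to 1 of its genes were called lower and 0 higher. Over all genes those fits called 102 to 140 lower and 88 to 100 higher.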
